A study of Mus musculus with 40 samples.

Results

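The spinal cord of mice given the neurotoxin MPTP was compared with that of saline controls, using 8 of the 40 libraries of the series. These were all 4 spinal cord libraries of the MPTP-Veh group and all 4 of the Con group, chosen by their sample labels. The mice were male C57BL/6N, labelled as 8 weeks old. MPTP-Veh mice received 4 intraperitoneal injections of MPTP at 20 mg/kg, 2 h apart, and Con mice received saline on the same schedule. From 1 week later, both groups received 4 injections of saline at the acupoint GB34 of the lower leg, so that MPTP against saline was the only stated difference between them. The remaining groups (MPTP-SU, MPTP-SU+S, MPTP-SU+T) received MPTP and the herbal preparation SUEHP at GB34, and the last pair of these also a CB1 antagonist or a PPARγ inhibitor. Their values are set side by side here, and their spinal cord libraries also entered the statistical fit described below. Tissue for sequencing was frozen without perfusion, and polyadenylated RNA was sequenced. The labels do not say whether each library came from 1 mouse, so the p-values measure the spread between libraries, taken over all 20 of the spinal cord.

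MPTP is converted by the monoamine oxidase of glia to MPP+, which enters dopamine neurons through the dopamine transporter and blocks complex I of the respiratory chain. It is used to model Parkinson's disease because dopamine neurons of the midbrain are lost. The spinal cord does not hold those cell bodies. Its dorsal horn receives the sensory and pain fibres and relays their signals through excitatory and inhibitory interneurons, and its microglia and astrocytes react when pain is sustained. The study asked whether SUEHP eases pain in MPTP-treated mice, and it stained the cord for signs of such a state.

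Library totals were 14642808 to 16572206 counts in the 8 libraries. Markers of the tissue were present, as Slc6a5, the glycine transporter of inhibitory cord neurons, stood at 317 to 398 CPM (counts scaled to the same TMM-corrected library size in every library), and the forebrain gene Emx1 was at or near 0. Among the Con libraries 2 stood apart. The predicted non-coding RNA Gm26917 took 8.04% of all counts in Con replicate 2 and 3.34% in Con replicate 1, against 0.647% to 1.32% in the other 6 libraries. Counts are therefore also given without these libraries. Each gene was tested with edgeR's quasi-likelihood test over all 20 spinal cord libraries. A DEG (differentially expressed gene) had an adjusted p-value under 0.05 and changed by more than 1.5-fold.

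No gene of the 16682 tested was a DEG, a share of 0%. The smallest adjusted p-value by edgeR was 0.0960, shared by 8 genes, and DESeq2 called 1 gene, Hoxd10. At an unadjusted p-value below 0.05 there were 2139 genes (12.8%), where 834 would be found if no gene differed. Of these, 1022 genes (6.13% of those tested) were higher and 1117 (6.7%) were lower in MPTP-Veh, and 317 (1.9%) also changed by more than 1.5-fold. On library size alone, without TMM, the split was 1096 higher and 633 lower. A fit of the 8 libraries alone gave 0 DEGs, with 725 genes (4.54%) higher and 792 (4.96%) lower. In 2.26% of genes all 4 MPTP-Veh libraries lay above all 4 Con libraries, and in 2.47% all lay below, 4.73% together. The spread between replicates was small, with a common dispersion of 0.00710 against 0.0512 in the midbrain. The midbrain fit included its MPTP-Veh replicate 4, a library that stood apart. The count of DEGs depended on which Con library was in the fit. Leaving out Con replicate 2 gave 58 DEGs (0.344%), 26 higher and 32 lower, with 1896 genes higher and 1664 lower at the unadjusted threshold. In that fit 630 genes had an adjusted p-value below 0.05, whatever their fold change. Leaving out Con replicate 1 gave 0 DEGs, with 583 genes higher and 637 lower. With both left out, 3 genes were DEGs, namely Per1, Rpl14-ps1 and Zfp991. Counts of list members in the main fit are read against all genes tested, 6.13% higher and 6.7% lower. Counts under an alternative are read against the share of all genes in that fit. These shares were 3.46% higher and 3.78% lower without Con replicate 1, 11.2% and 9.87% without Con replicate 2, 7.72% and 7.49% without both, and 6.57% and 3.79% on library size alone. In what follows, "higher" and "lower" as counts refer to the unadjusted threshold, and no gene passed the adjusted threshold by edgeR with all 8 libraries.

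**Figure D1:**
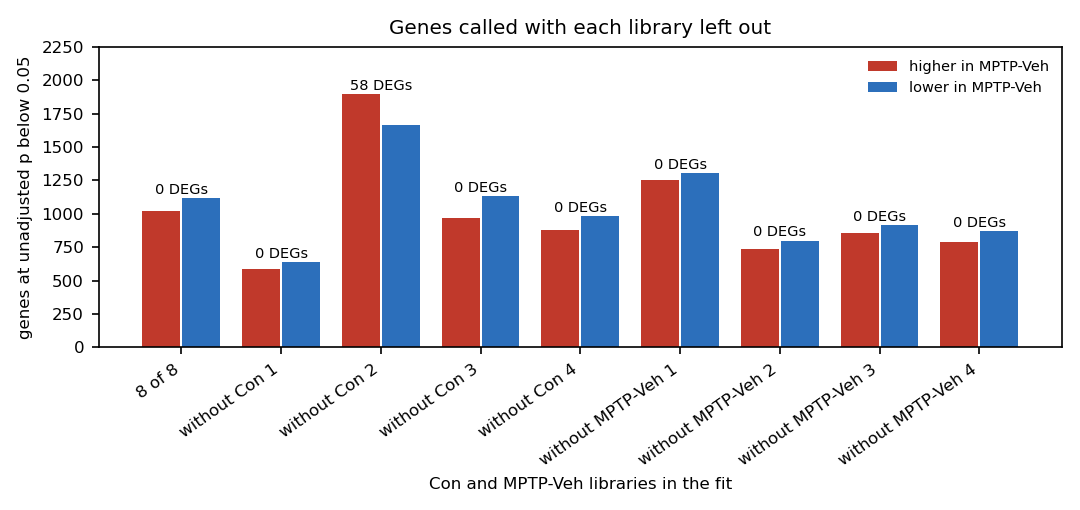
Number of genes at an unadjusted p-value below 0.05 (y axis, genes) in the comparison of MPTP-Veh with Con, with all 8 libraries and with each library left out in turn (x axis); red bars are genes higher in MPTP-Veh, blue bars genes lower, and the number of DEGs stands above each pair. The fit without Con replicate 2 gave 1896 and 1664 genes and 58 DEGs, and every other fit shown gave 0 DEGs.

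Among the genes whose groups did not overlap, the 10 with the smallest p-values on the higher side were Map6d1, Heyl, Shisa6, Creb5, Sox8, Tmem88b, Cpxm2, Fgfr2, Phf7 and Gucy1a1. Their log2 fold changes included 0.22 for the growth factor receptor gene Fgfr2 and 0.79 for Cpxm2. Heyl, a repressor induced by Notch signalling, was at 11.8, 12.4, 11.2 and 11.5 CPM in Con and at 16.4, 15.6, 15 and 14.6 CPM in MPTP-Veh, with all MPTP-Veh libraries above all Con libraries (log2 fold change 0.39, SE 0.08, edgeR adjusted p = 0.096). Map6d1, which encodes a microtubule-associated protein, was at 45.9 to 56.3 CPM in Con and at 61.8 to 65.6 CPM in MPTP-Veh. Shisa6 encodes an auxiliary subunit of AMPA receptors and had a log2 fold change of 0.33 (SE 0.07). Sox8, a transcription factor of the oligodendrocyte lineage, was at 57.5 ± 4.82 CPM in Con and 69.7 ± 2.68 CPM in MPTP-Veh (SD, n = 4). Gucy1a1, a subunit of the nitric oxide receptor guanylate cyclase, had a log2 fold change of 0.30 (SE 0.07).

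On the lower side the 10 genes were Hoxd10, Sgk1, Fxr1, Rpl14-ps1, Hoxc10, Rpl36a, Ppm1g, Plekhj1, Ttc21a and Hoxc13. Sgk1, a kinase induced by glucocorticoids and growth factors, stood at 42.5, 36.7, 52.7 and 35.5 CPM in Con and at 29.3, 29.3, 27.9 and 30.2 CPM in MPTP-Veh. The MPTP-Veh values lay close together and below every Con value (log2 fold change -0.52, SE 0.10, edgeR adjusted p = 0.096). The two-sided exact permutation test on its 8 values gave p = 0.0286, which is the smallest it can give with 4 against 4 libraries. Fxr1, which encodes an RNA-binding protein related to the fragile X protein, was at 120 ± 4.8 CPM in Con and 102 ± 1.67 CPM in MPTP-Veh (SD, n = 4). The ribosomal protein gene Rpl36a had a log2 fold change of -0.30, and the pseudogene Rpl14-ps1, whose reads cannot be separated with certainty from those of its parent gene, of -0.58. Ttc21a, a protein of ciliary transport, was at 5.62 ± 0.848 CPM in Con and 3.47 ± 0.263 CPM in MPTP-Veh (SD, n = 4). Hoxd10, Hoxc10 and Hoxc13 belong to one gene family and are described next.

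Hox genes are transcription factors laid down in 4 clusters, and the number of a gene within its cluster follows the position along the body axis at which it is expressed. The low numbers begin in the hindbrain, the middle ones in the cervical and thoracic cord, and paralogues 10 to 13 in the lumbar and sacral cord. All 8 tested genes of paralogues 10 to 13 were lower in MPTP-Veh, against 6.7% of all genes tested, and in 5 of them the groups did not overlap, against 2.47%. Their median log2 fold change was -0.72, where that of all genes tested was -0.0019. All 8 were also lower without Con replicate 1 (median -0.61), without Con replicate 2 (median -0.77), without each other library in turn and on library size alone. With both of these Con libraries left out, 8 of the 9 then tested were lower.

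Hoxd10 stood at 61.1, 42, 41.4 and 44.4 CPM in Con and at 28, 32, 31.1 and 29.2 CPM in MPTP-Veh. Con replicate 1 was the highest, and no MPTP-Veh value reached the lowest Con value (log2 fold change -0.65, SE 0.11). Its adjusted p-value was 0.096 by edgeR, 0.000113 by DESeq2 and 0.0102 by edgeR without Con replicate 2. Hoxc10, the most abundant of these genes, was at 97.9, 89.7, 89.8 and 94.4 CPM in Con and at 77.6, 79.3, 78.8 and 81.4 CPM in MPTP-Veh. Its difference was smaller (log2 fold change -0.23, SE 0.05), and the groups did not overlap. Hoxa10 was at 33.1 ± 1.87 CPM in Con and 26 ± 0.731 CPM in MPTP-Veh (SD, n = 4). Of the genes expressed nearer the tail, Hoxa11 had a log2 fold change of -0.79, Hoxd11 of -0.60 and Hoxc11 of -0.91. Hoxc12 stood at -1.71 (SE 0.52) and Hoxc13 at -2.44 (SE 0.55). Hoxc13 was low throughout, at 4.65, 1.51, 2.03 and 3.12 CPM in Con and at 0.608, 1.01, 0.0608 and 0.394 CPM in MPTP-Veh.

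The other 4 genes of this range were too low to be tested. Hoxb13 had 53 counts over the 4 Con libraries, 40 of them in 1 library, and 1 count over the 4 MPTP-Veh libraries. Hoxa13 had 9 and 0 counts, Hoxd13 had 17 and 13, and Hoxd12 had 0 in both. Fewer genes expressed nearer the head were lower. Of the 7 tested genes of paralogues 1 to 3, 1 was lower, and of the 12 of paralogues 4 to 7, 3 were lower (Hoxb4, Hoxc5 and Hoxb7), with a median log2 fold change of -0.04. Among the 7 genes of paralogues 8 and 9, 3 were lower (Hoxa9, Hoxb8 and Hoxb9), while Hoxc8 was higher, at 57.3 ± 4 CPM in Con and 67.1 ± 2.47 CPM in MPTP-Veh (SD, n = 4). On library size alone, 1 of these 7 was higher and 0 lower, with log2 fold changes of -0.18 for Hoxb8 and -0.11 for Hoxb9, against -0.19 and -0.13 with TMM.

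**Figure D2:**
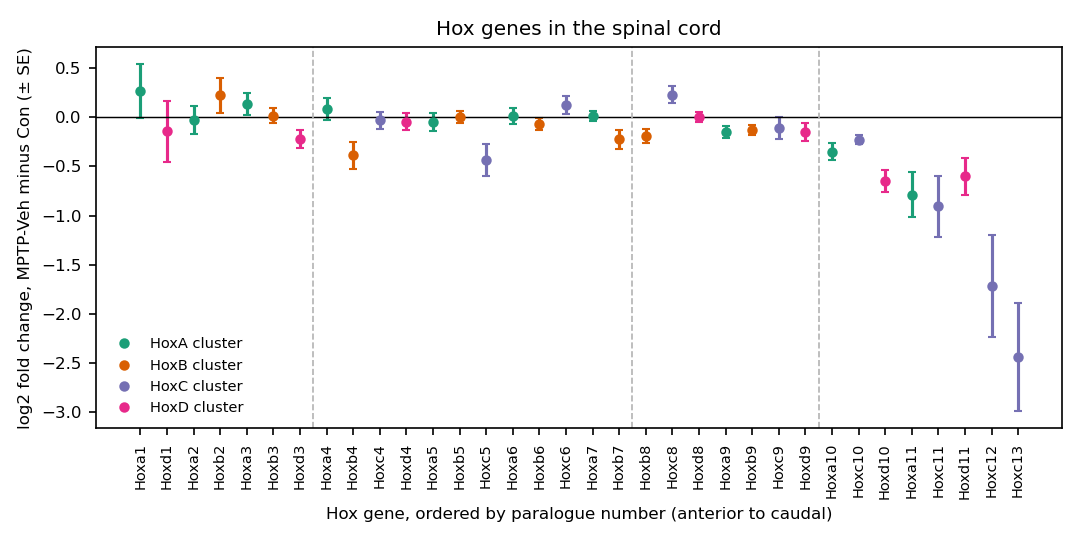
Log2 fold change of MPTP-Veh minus Con (y axis; bars are ± SE) for each tested Hox gene, ordered along the x axis by paralogue number from anterior to caudal and coloured by cluster; dashed lines divide paralogues 1 to 3, 4 to 7, 8 and 9, and 10 to 13. The genes of paralogues 10 to 13 lie between -2.44 and -0.23, and those up to paralogue 9 between -0.44 and 0.26.

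The summed CPM of paralogues 10 to 13 was 226, 179, 181 and 199 in Con and 144, 152, 146 and 146 in MPTP-Veh, so that the groups did not overlap. In the other MPTP groups, which are compared with the same Con libraries, the sums were 153 to 192 in MPTP-SU, 152 to 179 in MPTP-SU+S and 150 to 158 in MPTP-SU+T. At the unadjusted threshold 3 of the 8 genes were lower in MPTP-SU, where 4.63% of all genes were. In MPTP-SU+S 3 were lower, against 9.77% of all genes, and in MPTP-SU+T 5, against 4.38%. The stretch of cord taken for sequencing is not given in the sources used here, so the treatment and the position of the dissected piece cannot be told apart for these genes. In whole tissue, fewer cells of a type and less RNA per cell cannot be told apart either, for this and all other results.

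The study stained the cord for c-Fos, p-p38, CD11b and GFAP, and only brain regions for BDNF and TH, and its inhibitors act on CB1 and PPARγ. The 8 genes behind these proteins were measured here as mRNA in the cord. The study reported staining for c-Fos, p-p38, CD11b and GFAP as raised by MPTP in the dorsal horn. That is a protein measure of a part of the cord, unlike the mRNA of whole tissue. Cnr1 (the CB1 cannabinoid receptor) and Gfap (the intermediate filament of astrocytes) were higher, and Bdnf (a growth factor that sensitizes dorsal horn neurons) was lower. Cnr1 was at 33.5, 43.5, 40.5 and 37.2 CPM in Con and at 42.9, 50.7, 47.8 and 48.5 CPM in MPTP-Veh (log2 fold change 0.30, SE 0.08, edgeR adjusted p = 0.191). The lowest MPTP-Veh library lay just below the highest Con library. Gfap was at 929, 1164, 1131 and 1144 CPM in Con and at 1446, 1251, 1298 and 1339 CPM in MPTP-Veh. The groups did not overlap, and Con replicate 1 was far below the other Con libraries (log2 fold change 0.29, SE 0.08, edgeR adjusted p = 0.191). Bdnf was low, at 7.37, 8.59, 7.76 and 9.96 CPM in Con and at 7.05, 6.23, 7.36 and 5.71 CPM in MPTP-Veh. Its highest MPTP-Veh value nearly met its lowest Con value (log2 fold change -0.35, SE 0.12, edgeR adjusted p = 0.251).

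**Figure D3:**
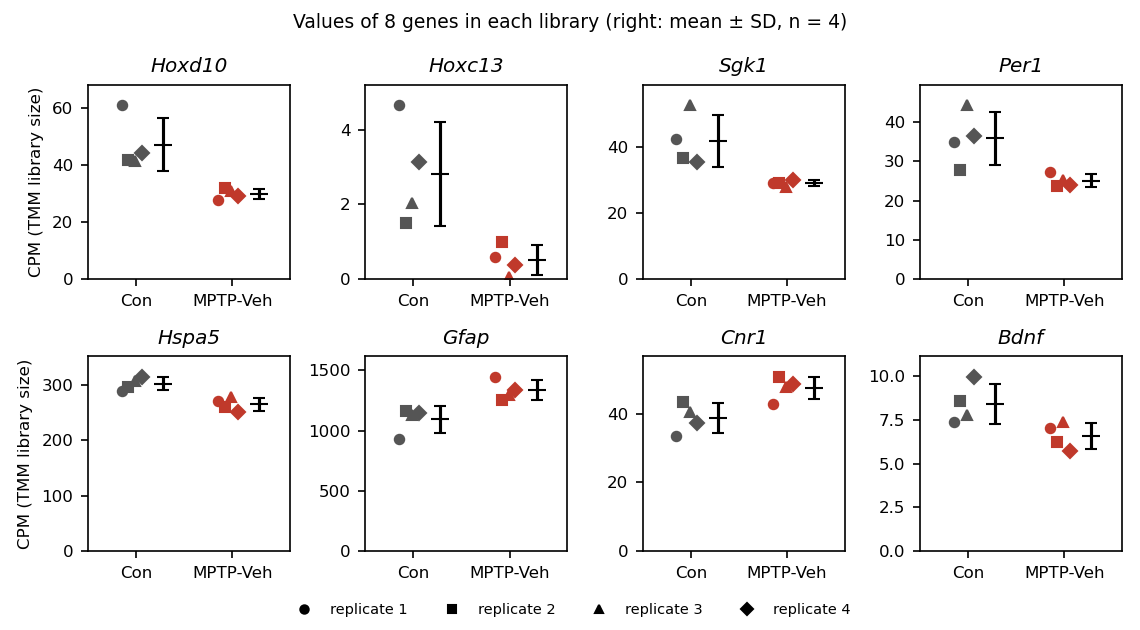
CPM (y axis, linear from 0) of 8 genes in each Con library (grey) and MPTP-Veh library (red), with marker shape giving the replicate and the black bar the mean ± SD (n = 4). Hoxd10, Hoxc13, Sgk1, Per1, Hspa5 and Bdnf were lower in every MPTP-Veh library than in every Con library, Gfap was higher, and Cnr1 overlapped.

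The other 5 genes did not pass. Fos, read in the study as c-Fos protein, was at 14.3 ± 3.4 CPM in Con and 11.3 ± 3.27 CPM in MPTP-Veh (SD, n = 4), and Mapk14, which encodes p38, was at 47 ± 2.44 and 43.8 ± 1.29 CPM. Itgam, which encodes CD11b of microglia, was at 13.7 ± 1.74 and 15.6 ± 1.58 CPM. Th, the rate-limiting enzyme of dopamine synthesis, stood at 3.6 ± 0.275 and 3.03 ± 0.489 CPM, and Pparg at 1.39 ± 0.352 and 1.38 ± 0.209 CPM. The mRNA level does not report phosphorylation, so p-p38 was not measured. Of 23 immediate early genes, which are switched on soon after neuronal firing, 0 were higher and 2 were lower, Egr1 and Fosl2. The lower share was 8.7%, against 6.7% of all genes, and 18 of the 23 had negative values (median log2 fold change -0.18). Egr1 was at 46, 47.8, 63.4 and 48.8 CPM in Con and at 33.2, 39.7, 43.2 and 36.5 CPM in MPTP-Veh. Without Con replicate 1, 3 of 23 were lower (all genes 3.78%), and without Con replicate 2, 5 were (all genes 9.87%). On library size alone 1 was lower (all genes 3.79%). With Con replicates 1 and 2 both left out, a fit chosen after seeing the data, 8 of 23 were lower (all genes 7.49%). Of 22 genes of the p38 pathway 4 were higher, among them the upstream kinase gene Map3k7 (0.20 on the log2 scale) and Mknk1 (0.21), and 1 was lower, Map2k3.

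**Figure D4:**
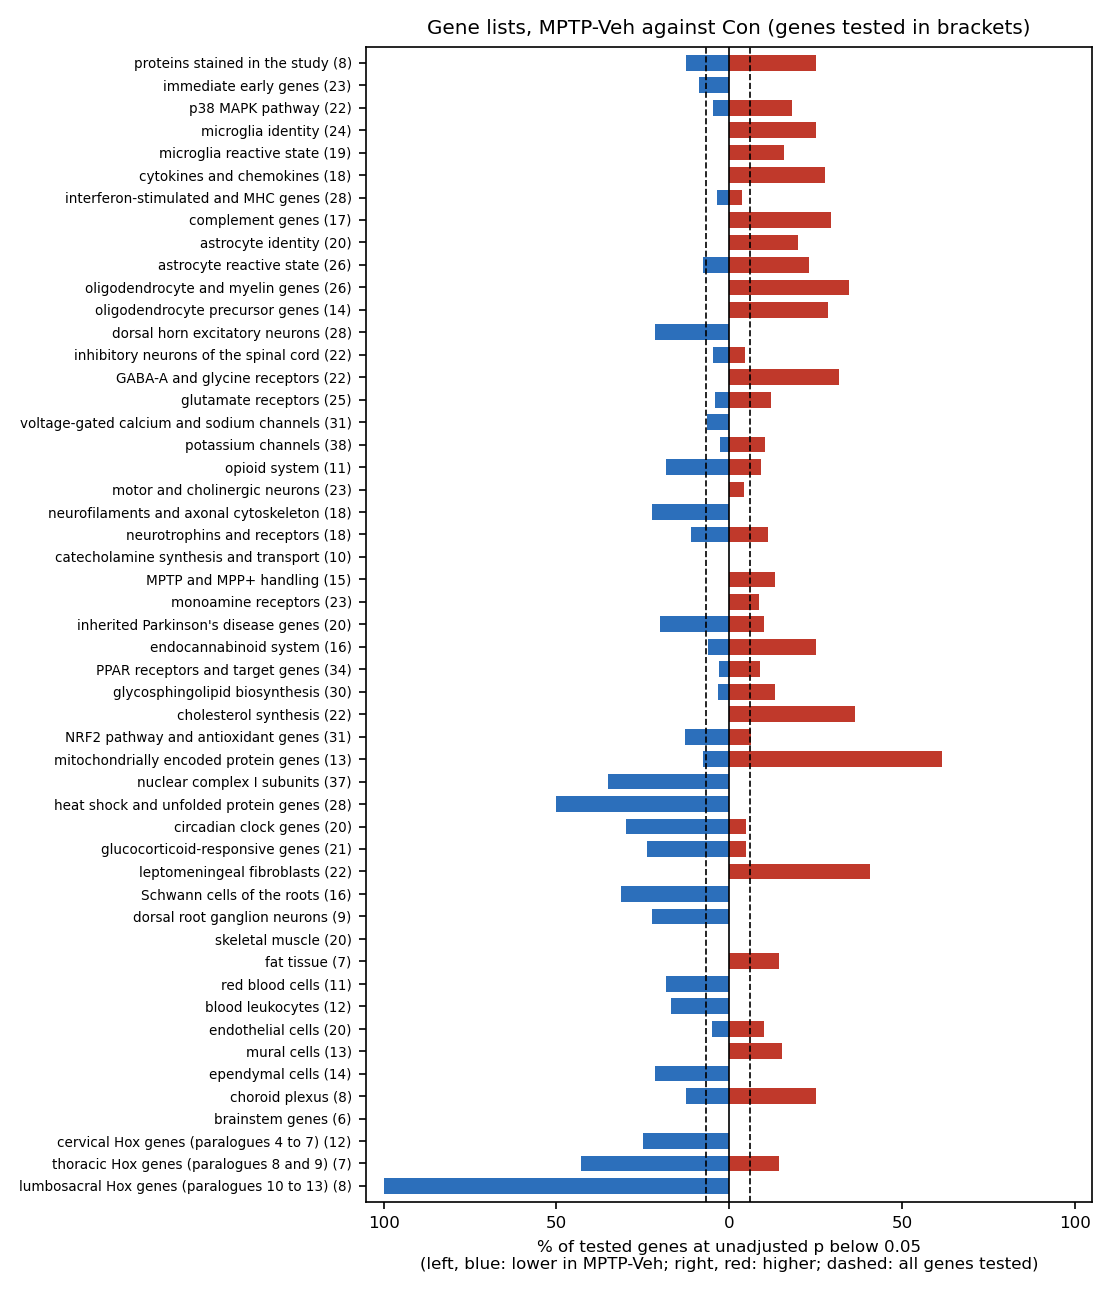
Share of the tested genes of each list (y axis, number tested in brackets) at an unadjusted p-value below 0.05 (x axis, %), with genes higher in MPTP-Veh to the right in red and lower to the left in blue; dashed lines give the share of all genes tested, 6.13% higher and 6.7% lower. The longest bars are the 8 of 8 lower Hox genes of paralogues 10 to 13, the 8 of 13 higher mitochondrially encoded genes and the 14 of 28 lower heat shock and unfolded protein genes.

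Most glial lists had more genes higher than lower at the unadjusted threshold, where 6.13% of all genes were higher and 6.7% lower. Of 24 genes of microglial identity 6 were higher and 0 lower. P2ry12, the purine receptor of resting microglia, was at 23.2 ± 2.56 CPM in Con and 29.6 ± 4.03 CPM in MPTP-Veh (SD, n = 4), and Olfml3, a secreted protein gene of microglia, had a log2 fold change of 0.34. Of 19 genes of reactive microglia 3 were higher, among them the growth factor genes Igf1 (0.61) and Csf1 (0.21). In this list 11 values were positive and 8 negative, with a median log2 fold change of 0.02. Its mean summed CPM was 2301 in Con and 2163 in MPTP-Veh. Of 17 complement genes 5 were higher. C4b was at 51.3 ± 5.32 CPM in Con and 62 ± 5.5 CPM in MPTP-Veh (SD, n = 4), and C3, on which the complement pathways converge, had a log2 fold change of 0.35. Of 18 tested genes of cytokines and inflammatory mediators 5 were higher, among them Tgfb2 (0.23), Il1r1 (0.42) and the prostaglandin enzyme gene Ptgs2, at 1.1 ± 0.3 CPM in Con and 2.06 ± 0.847 CPM in MPTP-Veh (SD, n = 4). With Con replicate 1 left out, 4 genes of microglial identity, 2 of reactive microglia, 3 of complement and 4 of cytokines were higher, where 3.46% of all genes were. Interferon-stimulated and MHC genes had 1 higher and 1 lower of 28 (3.57% each), where 6.13% and 6.7% of all genes were.

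Of 26 genes of reactive astrocytes, 6 were higher and 2 were lower. Cd44, a receptor for hyaluronan, was at 16.7, 18, 19.2 and 15 CPM in Con and at 23.3, 22.8, 19.2 and 23.4 CPM in MPTP-Veh, with MPTP-Veh replicate 3 at the level of the highest Con library. The acute-phase gene Lcn2 went the other way, at 2.52 ± 1.05 CPM in Con and 1.3 ± 0.49 CPM in MPTP-Veh (SD, n = 4). Of 20 genes of astrocyte identity 4 were higher and 0 lower. In this list 10 values were positive and 10 negative, with a median log2 fold change of 0.004. Among those higher was the water channel Aqp4, at 442, 755, 617 and 625 CPM in Con and 697, 797, 756 and 855 CPM in MPTP-Veh, lowest in Con replicate 1. Without that library the reactive list had 4 higher and 0 lower, and the identity list 2 higher and 0 lower, against 3.46% and 3.78% of all genes.

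Oligodendrocytes wrap axons in myelin, and 9 of 26 of their genes were higher and 0 lower. Opalin, a myelin membrane protein, was at 49, 45.1, 40.9 and 42.4 CPM in Con and at 55, 58.4, 52.9 and 49.5 CPM in MPTP-Veh, without overlap. Fa2h, Ugt8a and Gal3st1, enzymes of the galactolipids of myelin, had log2 fold changes of 0.21, 0.21 and 0.25. Of 14 genes of oligodendrocyte precursors 4 were higher, with Pdgfra, their growth factor receptor, at 38.9 ± 4.85 CPM in Con and 45.9 ± 1.41 CPM in MPTP-Veh (SD, n = 4). Cholesterol is a main lipid of myelin, and 8 of 22 genes of its synthesis were higher and 0 lower, among them Lss (0.24), Hsd17b7 (0.29) and Sc5d (0.20). In the fit without Con replicate 1, 4 myelin genes, 2 precursor genes and 3 cholesterol genes were higher, against 3.46% of all genes. The summed CPM of the myelin list was 22410 in Con replicate 1, 24150 to 24980 in the other Con libraries and 25230 to 26090 in MPTP-Veh.

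Of 28 genes of dorsal horn excitatory neurons 0 were higher and 6 were lower. The peptide gene Nmb was at 1.13, 2.71, 4.69 and 3.48 CPM in Con and at 0.79, 0.818, 0.608 and 0.591 CPM in MPTP-Veh, where all libraries lay below the lowest Con library (log2 fold change -2.10, SE 0.54, edgeR adjusted p = 0.191). The calcium-binding protein gene Calb2 was at 181 ± 26.9 CPM in Con and 150 ± 5.62 CPM in MPTP-Veh (SD, n = 4). The peptide gene Cck was at 25.8, 21.3, 20.6 and 21 CPM in Con and at 19, 17.1, 16.4 and 18.1 CPM in MPTP-Veh. Tacr1, the substance P receptor of projection neurons, and the peptide gene Sst had log2 fold changes of -0.19 and -0.16. Con replicate 1 was the highest library for Calb2, Cck, Tacr1 and Sst, and without it 4 of the 28 were lower, where 3.78% of all genes were.

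More genes for receptors of the inhibitory transmitters were higher than lower. Among all genes tested, 6.13% were higher and 6.7% lower. Of 22 GABA-A and glycine receptor genes 7 were higher and 0 lower, among them Gabrq, at 12.5 ± 0.416 CPM in Con and 14.9 ± 1.25 CPM in MPTP-Veh (SD, n = 4). With Con replicate 1 left out, 3 were higher, and without Con replicate 2, 12 were, where 11.2% of all genes were higher. Of 25 glutamate receptor genes 3 (12%) were higher, with Grik3 (0.14) and Grin3b (0.29) among them, and 1 (4%), Gria1, was lower (-0.13). Markers of inhibitory neurons had 1 higher, the acetylcholine receptor gene Chrm2 (0.25), and 1 lower, the enkephalin gene Penk (-0.16), of 22 (4.55% each). The opioid list had 1 higher, the kappa receptor gene Oprk1 (0.25), and 2 lower of 11. Of 23 genes of motor and cholinergic neurons 1 was higher, the choline transporter Slc5a7, at 76.8 ± 12.8 CPM in Con and 96 ± 7.05 CPM in MPTP-Veh (SD, n = 4). Of 31 calcium and sodium channel genes 0 were higher and 2 (6.45%) lower, and of 38 potassium channel genes 4 (10.5%) were higher and 1 (2.63%) lower. Of 18 genes of the axonal cytoskeleton 4 were lower, among them Stmn1 (-0.18), Nefm (-0.18) and Gap43 (-0.13). On library size alone 0 were lower, with log2 fold changes of -0.16, -0.17 and -0.11 (SE 0.08, 0.09 and 0.06). The neurotrophin list had 2 higher and 2 lower of 18.

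In the lists closest to the action of MPTP, none of the 10 tested catecholamine genes passed the unadjusted threshold by edgeR in either direction. The dopamine transporter gene Slc6a3 had 8 counts over the 4 Con libraries and 8 over the 4 MPTP-Veh libraries and was not tested. Of 15 genes of MPTP and MPP+ handling 2 were higher, Slc47a1, an organic cation exporter, and Abcb1a, a drug exporter of the blood-brain barrier. Slc47a1 is also a member of the leptomeningeal list and Abcb1a of the endothelial list, and the part of those cells in the 2 results was not tested. Monoamine receptors had 2 higher (8.7%) and 0 lower of 23, where 6.13% and 6.7% of all genes were. Of 20 genes of inherited Parkinson's disease 4 were lower and 2 higher. Gigyf2 did not overlap between the groups, at 72.6 ± 2.37 CPM in Con and 64 ± 1.48 CPM in MPTP-Veh (SD, n = 4). Park7, which encodes the redox protein DJ-1, had a log2 fold change of -0.18 and overlapped.

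Complex I, the target of MPP+, is built from subunits encoded in the nucleus and in mitochondrial DNA. Of 37 nuclear subunit genes 13 were lower and 0 higher, with Ndufab1 at 93.8 ± 8.68 CPM in Con and 80.1 ± 1.59 CPM in MPTP-Veh (SD, n = 4), Ndufa13 at -0.18 and Ndufa5 at -0.22 on the log2 scale. The sum of the list was 3364 CPM in Con replicate 1 and 2852 to 3042 in the other Con libraries, against 2755 to 2914 in MPTP-Veh. In the fit without Con replicate 1, 3 of the 37 were lower (all genes 3.78%), and on library size alone 3 were (all genes 3.79%). With the 8 libraries fitted alone, 5 were lower (all genes 4.96%). Of the 13 mitochondrially encoded protein genes 8 were higher and 1 lower. ND4 was at 12960, 16450, 12470 and 12570 CPM in Con and at 15170, 18110, 17790 and 19180 CPM in MPTP-Veh, so that Con replicate 2 lay within the MPTP-Veh range. ND1 and ND5 had log2 fold changes of 0.35 and 0.31. With Con replicate 1 left out, 5 were higher (all genes 3.46%), and without Con replicate 2, 10 were (all genes 11.2%). In the midbrain of the same groups, with 3 DEGs (0.018% of genes tested), 17 of the nuclear subunits were higher and 0 lower, where 15.6% of all genes were higher and 8.15% lower. Without midbrain MPTP-Veh replicate 4, a library that stood apart, 10 of the 37 were higher and 0 lower, where 5.32% of all genes were higher and 6.8% lower. Of 31 antioxidant genes in the cord 2 (6.45%) were higher and 4 (12.9%) lower, against 6.13% and 6.7% of all genes. Catalase (Cat, 0.22) and superoxide dismutase (Sod1, -0.22) were on opposite sides.

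In the lipid signalling lists, 4 of 16 endocannabinoid genes were higher and 1 lower. Beside Cnr1 and Ptgs2 these included Abhd4, an enzyme of anandamide synthesis, at 73.3 ± 4.9 CPM in Con and 82.1 ± 5.24 CPM in MPTP-Veh (SD, n = 4). In the fit without Con replicate 1, 4 were higher, against 3.46% of all genes. PPAR receptors and target genes had 3 higher (8.82%) and 1 lower (2.94%) of 34, against 6.13% and 6.7% of all genes. Among those higher, the thioesterase gene Acot2 was at 7.92 ± 1.34 CPM in Con and 10.5 ± 1.29 CPM in MPTP-Veh (SD, n = 4). Glycosphingolipid synthesis had 4 higher and 1 lower of 30, and 3 of the higher genes were the myelin enzymes named above.

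Heat shock proteins and the chaperones of the endoplasmic reticulum keep proteins folded. Of 28 tested genes of these systems 14 were lower and 0 higher, 27 had negative values, and in 6 the groups did not overlap. The summed CPM was 9322, 9191, 9233 and 9582 in Con and 8593, 8399, 8759 and 8532 in MPTP-Veh, without overlap. In the fits without Con replicate 1, without Con replicate 2 and without both, 12, 12 and 15 were lower, where 3.78%, 9.87% and 7.49% of all genes were. On library size alone 5 of 28 were lower, against 3.79% of all genes. Leaving out MPTP-Veh replicate 2 gave 7 (all genes 4.74%) and leaving out MPTP-Veh replicate 4 gave 8 (all genes 5.16%). Dnajb1, a co-chaperone of HSP70, was at 35.2, 36.2, 40.1 and 40.2 CPM in Con and at 32, 31.4, 29.9 and 32 CPM in MPTP-Veh. Hsp90b1 (GRP94) was at 533 ± 6.1 CPM in Con and 476 ± 14 CPM in MPTP-Veh (SD, n = 4). Hspa5 (BiP), the chaperone that senses unfolded proteins in the endoplasmic reticulum, was at 288, 296, 308 and 314 CPM in Con and at 270, 259, 278 and 251 CPM in MPTP-Veh. All MPTP-Veh libraries lay below all Con libraries for these 3 genes, with log2 fold changes of -0.28, -0.16 and -0.19 (SE 0.08, 0.05 and 0.07). Manf (-0.26), Sdf2l1 (-0.36) and Hsp90ab1 (-0.16) were also lower.

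Genes of the unfolded protein response share a promoter element, the ER stress response element, which reads CCAAT, 9 further bases of any kind and CCACG. It was searched on both strands in the 250 bases before each annotated transcript start of RefSeq (build GRCm38.p6). Among the 27025 genes with a listed promoter, 35 held it (0.13%), and of the 23 genes of the heat shock and unfolded protein list with a promoter 5 did, namely Calr, Creld2, Hsp90b1, Hspa5 and Pdia6. Of these, Hsp90b1, Hspa5 and Calr (-0.15) were among the lower genes. Creld2 had a log2 fold change of -0.24 (SE 0.13) and Pdia6 of -0.09 (SE 0.09). The heat shock element, GAA, TTC and GAA each 2 bases apart, was held by 2 of the 23 genes and by 0.514% of all genes. The promoters of the pair of holders whose groups did not overlap are shown with the element in capitals. That of Hspa5 lies at chr2:34771840-34772089 on the plus strand, and that of Hsp90b1, which holds it at 2 places, at chr10:86705445-86705694 on the minus strand. Both windows overlap an annotated exon.
Hspa5: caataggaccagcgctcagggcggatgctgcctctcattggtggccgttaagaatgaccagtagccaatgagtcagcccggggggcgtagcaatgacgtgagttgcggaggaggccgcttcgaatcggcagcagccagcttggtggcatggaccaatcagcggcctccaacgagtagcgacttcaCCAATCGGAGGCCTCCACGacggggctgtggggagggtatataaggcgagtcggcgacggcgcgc
Hsp90b1: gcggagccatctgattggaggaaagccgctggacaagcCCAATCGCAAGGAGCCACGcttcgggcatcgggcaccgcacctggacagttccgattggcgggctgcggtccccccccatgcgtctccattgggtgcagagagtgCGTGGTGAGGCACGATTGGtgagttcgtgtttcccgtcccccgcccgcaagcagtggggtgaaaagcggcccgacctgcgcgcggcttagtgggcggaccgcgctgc

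Genes of the circadian clock and of the response to glucocorticoids, the adrenal stress hormones with a daily rhythm, share members such as Per1. Of 20 clock genes 6 (30%) were lower and 1 (5%) was higher, against 6.7% and 6.13% of all genes. In this list 9 values were positive and 11 negative, with a median log2 fold change of -0.02. Per1 was at 34.9, 27.8, 44.2 and 36.5 CPM in Con and at 27.4, 23.8, 25.2 and 23.9 CPM in MPTP-Veh, with the lowest Con value only just above the highest MPTP-Veh value (log2 fold change -0.52, SE 0.12). Its adjusted p-value by edgeR was 0.159, and 0.0102 without Con replicate 2. Per2 (-0.29), the repressor gene Bhlhe41 (-0.18) and the output gene Dbp (-0.22) were lower too. The groups overlapped for Per2 and Dbp. Nr1d1, a repressor in the second loop of the clock, was higher, at 60.9 ± 6.16 CPM in Con and 72.5 ± 9.12 CPM in MPTP-Veh (SD, n = 4). Of 21 glucocorticoid-responsive genes 5 were lower, with Sgk1, Per1, Fam107a (-0.19) and Lcn2 among them, and 1 was higher. With Con replicate 1 left out, 5 clock genes and 4 glucocorticoid-responsive genes were lower, against 3.78% of all genes. The time of day at which tissue was taken is not given for the groups in the sources used here, so time and treatment cannot be told apart.

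The E-box CACGTG, through which the clock proteins drive Per1, was held by 5 of the 18 clock genes with a listed promoter and by 6.86% of all genes. It was also held by 4 of 19 glucocorticoid-responsive genes, Sgk1 and Per1 among them, and by 3 of 23 heat shock and unfolded protein genes. The palindromic glucocorticoid response element, AGAACA and TGTTC with 3 bases between them, was held by 1 of 19 glucocorticoid-responsive genes, Sgk1, and by 9 of all genes (0.0333%). The promoter of Per1 is shown with the E-box in capitals, and that of Sgk1 with the glucocorticoid response element in capitals. The capitals of Sgk1 cover 2 overlapping matches, 1 on each strand, and its E-box, near the start of the window, is left in small letters. The window of Sgk1 lies at chr10:21993640-21993889 and that of Per1 at chr11:69098699-69098948, both on the plus strand of GRCm38.p6. That of Per1 overlaps an annotated exon, and that of Sgk1 does not. A match says only that these letters are present.
Sgk1: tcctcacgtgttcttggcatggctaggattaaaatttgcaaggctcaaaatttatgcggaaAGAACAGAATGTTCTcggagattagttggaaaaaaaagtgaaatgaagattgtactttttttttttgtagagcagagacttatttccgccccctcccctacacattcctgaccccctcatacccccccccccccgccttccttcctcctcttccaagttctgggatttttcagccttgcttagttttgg
Per1: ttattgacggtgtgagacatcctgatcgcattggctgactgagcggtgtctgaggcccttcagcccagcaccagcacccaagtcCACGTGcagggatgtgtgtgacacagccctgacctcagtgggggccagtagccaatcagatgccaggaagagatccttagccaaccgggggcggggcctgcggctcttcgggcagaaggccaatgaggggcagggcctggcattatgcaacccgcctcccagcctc

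Markers of neighbouring tissues varied between libraries and also between groups. Of 22 genes of leptomeningeal fibroblasts, the cells of the inner meninges, 9 were higher and 0 lower, with a median log2 fold change of 0.43. Fmod, a collagen-binding proteoglycan, was at 22.6, 33.8, 39.5 and 29.6 CPM in Con and at 58.9, 60.2, 52.5 and 48.5 CPM in MPTP-Veh. The growth factor gene Igf2 was at 58.1, 80.5, 93.6 and 57.4 CPM in Con and at 113, 126, 114 and 107 CPM in MPTP-Veh. Neither gene overlapped between the groups. The sum of the list was 413 to 592 CPM in Con and 501 to 689 CPM in MPTP-Veh and overlapped, and without Con replicate 1, 3 of 22 were higher, against 3.46% of all genes. Of 16 genes of the Schwann cells of the spinal roots 5 were lower. Ncmap (-0.61), Sostdc1 (-0.61) and Scn7a (-0.42) were among those lower. In the fit without Con replicate 1, 0 were lower by edgeR at the unadjusted threshold (all genes 3.78%), and without Con replicate 2, 10 were (all genes 9.87%). The parts of meninges, roots and blood in the other results were not tested.

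**Figure D5:**
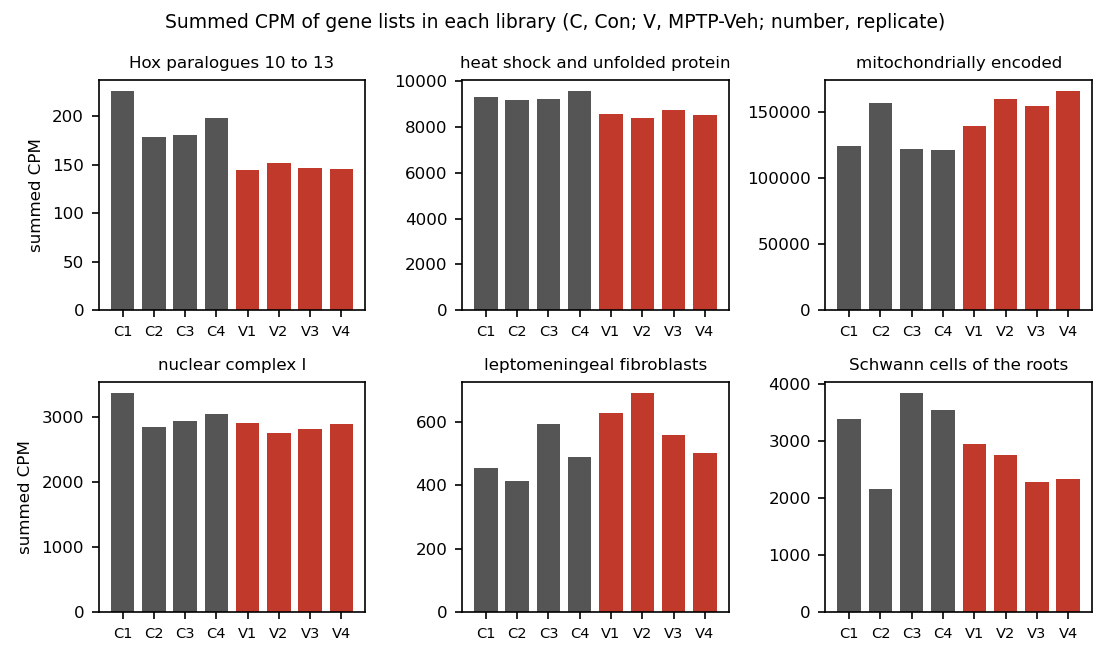
Summed CPM (y axis, linear from 0) of 6 gene lists in each of the 4 Con (C1 to C4, grey) and 4 MPTP-Veh libraries (V1 to V4, red). Hox paralogues 10 to 13 and the heat shock and unfolded protein genes did not overlap between the groups, whereas the sums of mitochondrially encoded, nuclear complex I, leptomeningeal and Schwann cell genes did.

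Neurons of the dorsal root ganglia had 2 lower of 9 genes, red blood cells 2 lower of 11, and blood leukocytes 2 lower of 12, one of them the granulocyte gene S100a9, at 19.2, 7.68, 10.5 and 1.98 CPM in Con and 8.33, 3.65, 3.35 and 3.87 CPM in MPTP-Veh. The haemoglobin gene Hba-a1 was at 570, 250, 268 and 169 CPM in Con and at 221, 205, 158 and 279 CPM in MPTP-Veh, highest in Con replicate 1. Ependymal cells had 3 lower of 14. Skeletal muscle had 0 higher and 0 lower of 20, with sums of 136 to 263 CPM in Con and 80.2 to 377 CPM in MPTP-Veh. Endothelial cells had 2 higher and 1 lower of 20, mural cells 2 higher of 13, choroid plexus 2 higher and 1 lower of 8, and fat tissue 1 higher of 7. Brainstem genes had 0 higher and 0 lower of 6. Among all genes tested, 6.13% were higher and 6.7% lower.

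Values in the other MPTP groups, which were compared with the same 4 Con libraries, are set beside these. Sgk1 was at 28.3, 30.7 and 31.4 CPM on average in the groups MPTP-SU, then MPTP-SU+S, then MPTP-SU+T, against 29.2 CPM in MPTP-Veh and 41.8 CPM in Con. Hoxd10 was at 36.3, 36.5 and 34.2 CPM, between MPTP-Veh at 30.1 and Con at 47.2 CPM. Egr1 was at 33.2, 32.6 and 39.2 CPM, against 38.2 CPM in MPTP-Veh and 51.5 CPM in Con. The 3 levels of Gfap were 1186, 1202 and 1389 CPM, and those of Cnr1 44.8, 46.8 and 41.8 CPM. Per1 was at 25.6, 27.8 and 34.7 CPM, against 25.1 CPM in MPTP-Veh and 35.9 CPM in Con. In the midbrain, Sgk1 was at 54.7, 53.6, 53.8 and 45.9 CPM in Con and at 32.5, 35.5, 33.7 and 32 CPM in MPTP-Veh (log2 fold change -0.64, SE 0.13), without overlap. Opalin had a midbrain log2 fold change of 0.54 (SE 0.14) and of 0.43 without MPTP-Veh replicate 4. Calb2 was at 115, 128, 170 and 164 CPM in Con and at 195, 204, 182 and 772 CPM in MPTP-Veh, so that 1 library carried most of the difference. Its log2 fold change was 1.23 (SE 0.34), and 0.42 (SE 0.13) without that library. Stmn1 went likewise from 0.99 (SE 0.31) to 0.23 (SE 0.09), and Cnr1 from -0.77 (SE 0.35) to -0.44 (SE 0.21). The difference between the tissues was not tested.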

How the data were processed

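Per the labels and methods, the authors trimmed reads with fastp, aligned them to GRCm39 with STAR and quantified them with Salmon, and GATK is also named. The deposited values are estimated counts per gene symbol, here whole numbers. Total counts of the 8 libraries were 14642808 to 16572206. Of 40213 symbols, 16682 passed filterByExpr. The 20 spinal cord libraries (5 groups of 4) were fitted together with edgeR 4.0.16 (R 4.3.3, TMM, quasi-likelihood test, Benjamini-Hochberg adjustment). A step on simulated data tested the fit. CPM used TMM-scaled library sizes. DESeq2 1.42.0, limma-voom 3.58.1, other scalings and filters, a replicate block and left-out libraries were alternatives. The fits without both Con replicates 1 and 2, without Gm26917 in the library size and without midbrain MPTP-Veh replicate 4 were chosen after seeing the data. The text named the 10 non-overlapping genes with the smallest p in each direction, the genes of the stained proteins and drug targets, up to 3 called genes per list and genes called under an alternative; further genes (such as other caudal Hox genes, Manf, Calr and Tacr1) were chosen after their values were seen. Members and lists were chosen with earlier results of these data known. Promoters came from RefSeq (GRCm38.p6). Results for some genes are not reported here.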

Additional observations from a re-analysis of the deposited data

Results flagged for a closer look

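Within each group of 4 libraries, a library was singled out when its gap to the nearest other was larger, as a share of the group's whole range, than Dixon's critical value at the 95% level. This was the case in 37 of 340 groups checked, over the named genes and the list sums, and about 1 in 20 groups is expected by chance. Con replicate 1 stood apart on the high side for Cck at 25.8, Hoxd10 at 61.1 and Tacr1 at 24.8 CPM. The summed CPM of the list of dorsal horn excitatory neurons at 962 set Con replicate 1 apart as high. Con replicate 1 stood apart on the low side for Csf1 at 31.1, Gfap at 929 and Grik3 at 29.9 CPM. Con replicate 1 was also the low library in the summed CPM of the list of stained proteins and drug targets at 1050 and the list of astrocyte reactive state at 1310. Gfap, at 929 CPM in that library, is a member of both lists. Con replicate 2 stood apart on the high side for Hoxc8 at 63.2 and ND4 at 16400 CPM. The summed CPM of the list of GABA-A and glycine receptors at 2790 and the list of mitochondrially encoded protein genes at 157000 set Con replicate 2 apart as high. Con replicate 2 stood apart on the low side for Calr at 353 and Sostdc1 at 3.62 CPM. Con replicate 2 was also the low library in the summed CPM of the list of mural cells at 319. Con replicate 3 stood apart on the high side for Egr1 at 63.4, Fa2h at 154, Fosl2 at 11.9 and Phf7 at 2.95 CPM. Con replicate 4 stood apart on the high side for Gm11478 at 5.46 and Rpl14-ps1 at 21.2 CPM. MPTP-Veh replicate 1 stood apart on the high side for Nefm at 3200 and S100a9 at 8.33 CPM. The summed CPM of the list of microglia reactive state at 2350, the list of astrocyte reactive state at 1880, the list of motor and cholinergic neurons at 1150 and the list of neurofilaments and axonal cytoskeleton at 17200 set MPTP-Veh replicate 1 apart as high. MPTP-Veh replicate 1 stood apart on the low side for Sc5d at 115 CPM. MPTP-Veh replicate 1 was also the low library in the summed CPM of the list of GABA-A and glycine receptors at 2640 and the list of monoamine receptors at 322. MPTP-Veh replicate 2 stood apart on the high side for Hoxd11 at 9.82 CPM. The summed CPM of the list of cervical Hox genes (paralogues 4 to 7) at 266 set MPTP-Veh replicate 2 apart as low. MPTP-Veh replicate 3 stood apart on the low side for Cd44 at 19.2 and Rpl14-ps1 at 9.73 CPM. MPTP-Veh replicate 4 stood apart on the high side for Hoxc8 at 70.8 CPM. MPTP-Veh replicate 4 was also the high library in the summed CPM of the list of opioid system at 1330.

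For 2 of the genes named above, the groups did not overlap in the cord or in the midbrain, with opposite directions in the tissues. Plekhj1 had a log2 fold change of -0.40 in the cord and 0.725 in the midbrain, and Rpl36a of -0.30 and 0.294. Without midbrain MPTP-Veh replicate 4 the midbrain values were 0.20 and 0.20. The difference between the tissues was not tested.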

How the results depend on the processing

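The number of DEGs, 0 with all 8 libraries, was 1 with DESeq2, 19 without a filter on low counts, 4 with limma-voom and sample quality weights, and 3 without Con replicates 1 and 2, and it ran from 0 to 58 when each library was left out in turn, the 58 without Con replicate 2. Without the fold limit, genes at an adjusted p-value below 0.05 numbered 59 with DESeq2, 40 without a filter and 63 with quality weights. They numbered 3 without Con replicates 1 and 2 and 630 without Con replicate 2. Genes lower at the unadjusted threshold numbered 633 on library size alone, and genes higher numbered 1619 with limma-voom and sample quality weights. Leaving out each library in turn gave 583 to 1896 genes higher and 637 to 1664 lower, with the smallest counts without Con replicate 1 and the largest without Con replicate 2. The cause was not tested. The log2 fold change of Pparg, which was near 0, changed sign, to 0.0184 on library size alone, 0.000613 with mitochondrial and haemoglobin genes left out of it, 0.000845 without a filter, 0.0013 with at least 10 counts in every library, 0.0247 with limma-voom, 0.146 with quality weights, 0.00139 with the replicate block and 0.221 without Con replicates 1 and 2, and ran from -0.124 to 0.168 when each library was left out in turn. Depth limited Hoxb13, Hoxa13 and Slc6a3, which were too low to test. Replicate numbers did not pair the libraries, with correlations of same-numbered deviations of 0.068, 0.0377, -0.00234 and -0.0634, and the replicate block gave 0 DEGs, with 1151 genes higher and 1162 lower.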
